A study of Rattus norvegicus with 6 samples.

Results

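Bone morphogenetic protein (BMP) signaling was followed in the rat heart primordium through 10 genes, namely the ligands Bmp2, Bmp4, Bmp5, Bmp7 and Bmp10, the type I receptor Bmpr1a, and the target genes Id1, Id2, Id3 and Smad6. Every non-control probe of the array whose gene name was 1 of these 10 was taken, which gave 11 probes of 30367 and 10 gene names of 19297. The rule used gene names, and the choice of genes was made with earlier results of these data known. Heart primordia came from embryos of the strain that the labels spell Wister rat, on embryonic day 10 (E10). The pre-heartbeat group (3 samples) held primordia with a flat central shape, and the post-heartbeat group (3 samples) held primordia with a raised central shape. The groups therefore differ by developmental form within 1 day. The authors took this form and the number of somites, whose ranges overlapped, as signs of heartbeat initiation on the basis of earlier ex vivo studies. Neither the number of primordia in each RNA sample nor the sex of the embryos is given in the sources used here, and no transgene or treatment was involved.

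BMP ligands are secreted dimers that bind a complex of type I and type II serine/threonine kinase receptors. The type I receptor phosphorylates Smad1, Smad5 or Smad9, which join Smad4, enter the nucleus and activate genes such as the Id genes and the inhibitory Smads. Secreted antagonists bind the ligands and keep them from the receptors. In the early embryo, BMP signals help to specify cardiac mesoderm, and later they act in the atrioventricular canal and in the growth of trabeculae.

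All values below are log2 signals of a probe less that of the 75th percentile on its array, so 0 is the level of a fairly bright spot, and a log2 fold change is the mean of the post-heartbeat arrays minus that of the pre-heartbeat arrays. Levels of different genes were not compared, since each probe binds its target differently. The 75th percentile lay between 1143 and 1694 intensity units, 0 spots were saturated, and the 19299 probes that rose well above background throughout at least 1 of the groups were tested. According to the array barcodes, the arrays lay on 2 slides. On slide 1 were the first pre-heartbeat replicate and replicates 1 and 2 of the post-heartbeat group, and on slide 2 were replicates 2 and 3 of the pre-heartbeat group and the third post-heartbeat replicate. Without pre-heartbeat replicate 1 or post-heartbeat replicate 3, the arrays left in that group all lie on 1 slide. In unblocked values without either of these arrays, group and slide are therefore harder to tell apart. In a model with group and slide, 16.1% of the tested probes differed between the slides at a limma adjusted p under 0.05, so each group difference was also estimated with a slide term, called the blocked fit. Of the heart muscle genes that mark the tissue, 12 of 12 were tested, and their mean signal was 2.97 to 3.46 before and 4.27 to 4.47 after heartbeat initiation. The ventricular myosin light chain gene Myl2 changed most among them, rising by 3.46 on the log2 scale (SE 0.18, limma adjusted p = 0.00463).

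The probes of the ligands decide what is read as Bmp2 or Bmp4, because these ligands are close relatives. Each probe is 60 bases long, and its sequence is printed 5′ to 3′ as the scanner files give it. In the first pair, capitals mark the bases that are identical at the same place when the probes are set against each other without gaps.

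Bmp2: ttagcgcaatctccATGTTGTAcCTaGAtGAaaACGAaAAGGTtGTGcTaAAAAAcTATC

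Bmp4: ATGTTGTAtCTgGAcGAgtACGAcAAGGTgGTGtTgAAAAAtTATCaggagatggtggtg

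These probes share 36 of 46 overlapping bases (78.3%), and the longest shared run is 8 bases. The Bmp2 probe lies on chromosome 3 from 121381127 to 121381186 and the Bmp4 probe on chromosome 15 from 22283362 to 22283421 in the rn4 genome of the array annotation. Whether transcripts of one bound the probe of the other was not tested. The probes of Bmp5 and Bmp10 are shown because their signals differed between the slides, as described below, and capitals mark the closing stop codon of Bmp10.

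Bmp5: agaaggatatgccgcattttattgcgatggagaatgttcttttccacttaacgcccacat

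Bmp10: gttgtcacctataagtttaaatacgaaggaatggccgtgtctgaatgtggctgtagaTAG

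The other 5 pairs among these 4 probes shared between 36.2% and 51.4% of their overlapping bases. The Bmp5 probe lies on chromosome 8 from 80710069 to 80710128, and the Bmp10 probe on chromosome 4 from 121601719 to 121601778.

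Of the 10 tested probes, 0 changed between the groups at a limma adjusted p under 0.05 without a block, beside 0.145% of all tested probes. In that fit, 0 had an unadjusted limma p under 0.05, beside 1350 of 19299 tested probes. In the blocked fit, 0 of 10 changed at that adjusted p, beside 1.51% of all tested probes, and Bmp10 had an unadjusted limma p of 0.00833. The selection of the methods, which asks for at least a 1.5 fold change and a p under 0.05, unadjusted, when the group means are compared, also took 0 of 10, beside 3.05% of all tested probes. The median log2 fold change of the 10 probes was 0.09, beside -0.03 over all tested probes. Of the 10, 6 were higher and 4 lower after heartbeat initiation, and their log2 fold changes lay between -0.24 for Id1 and 0.41 for Bmp7. In whole primordia, fewer cells of a type and less RNA per cell cannot be told apart. The labels call the samples biological replicates without saying how many litters they came from, so p-values measure only the spread between these samples.

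**Figure D1:**
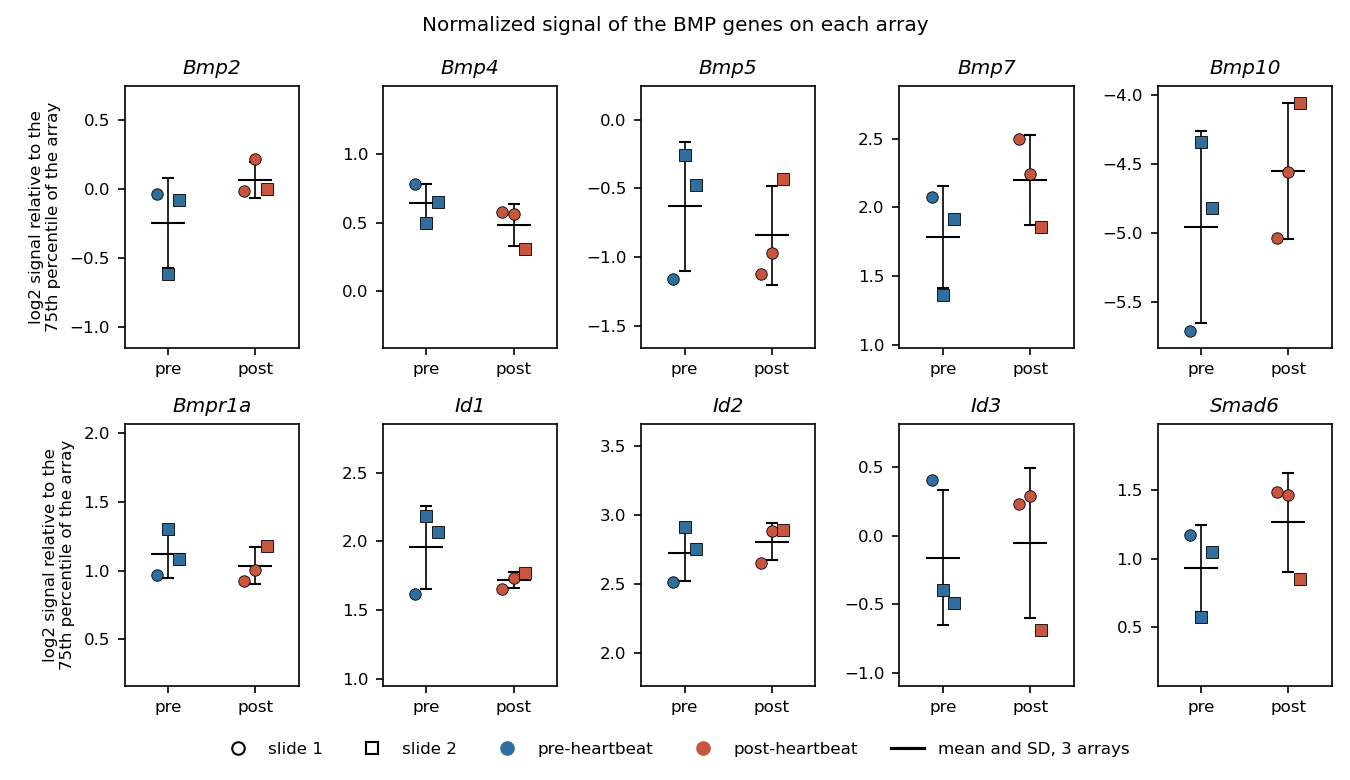
Log2 signal scaled to the 75th percentile of each array for each of the 10 genes on the 6 arrays, with circles for slide 1, squares for slide 2, and black bars for the mean and SD of the 3 arrays of a group. Every panel spans the same number of log2 units around its own level. The groups overlap in every panel but that of Bmp2. In the panels of Bmp5, Bmp7, Bmpr1a, Id1, Id3 and Smad6, all circles lie to one side of all squares in height.

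The ligands showed no change that passed a test. Bmp2, which is made next to and within the forming heart and helps to induce cardiac genes, had signals of -0.03, -0.62 and -0.08 on the pre-heartbeat arrays and -0.01, 0.22 and 0.00 on the post-heartbeat arrays. It was the only ligand whose groups did not overlap (the nearest values were -0.03 and -0.01), and groups did not overlap for 11.6% of all tested probes. Bmp2 differed by 0.31 on the log2 scale (SE 0.20, limma adjusted p = 0.864, exact permutation p = 0.1, the smallest that 3 arrays a group allow), and its 95% interval ran from 0.901 to 1.71 fold. Without pre-heartbeat replicate 2, the lowest array, the log2 fold change of Bmp2 was 0.13.

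Bmp4, a ligand needed for mesoderm formation, gave 0.78, 0.50 and 0.65 before and 0.58, 0.56 and 0.31 after heartbeat initiation. The post-heartbeat values lay within or below those of the other group, and the log2 fold change was -0.16 (SE 0.15, limma adjusted p = 0.864). In the blocked fit it was -0.24 (SE 0.13, limma adjusted p = 0.70) and the 95% interval ran from 0.688 to 1.05 fold. The unblocked value of Bmp4 was -0.07 without post-heartbeat replicate 3.

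Bmp7, a ligand that can act in place of other BMPs in the heart, had signals of 2.07, 1.36 and 1.92 on the pre-heartbeat arrays and 2.50, 2.24 and 1.86 on the post-heartbeat arrays. Its largest values were those of post-heartbeat replicates 1 and 2, on slide 1, and the third post-heartbeat array lay among the pre-heartbeat arrays. Its log2 fold change was 0.41 (SE 0.25, limma adjusted p = 0.864), with a 95% interval from 0.888 to 2.0 fold. In the blocked fit, this value decreased to 0.26 (SE 0.18, limma adjusted p = 0.870). Without pre-heartbeat replicate 2, the lowest array, the unblocked value of Bmp7 was 0.20.

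Bmp5, a relative of Bmp7, gave -1.16, -0.26 and -0.48 before and -1.12, -0.97 and -0.43 after heartbeat initiation. All 3 arrays of slide 1 were lower than all 3 arrays of slide 2, in both groups. Slide 2 exceeded slide 1 by 0.70 (SE 0.14, limma adjusted p = 0.0172), whereas the groups differed by -0.21 (SE 0.29, limma adjusted p = 0.864) without the block and by 0.02 (SE 0.14, limma adjusted p = 1.0) with it. Within slide 1 the post-heartbeat arrays of Bmp5 differed by 0.11 and within slide 2 by -0.07, and the 95% interval in the blocked fit ran from 0.808 to 1.27 fold. The unblocked value of Bmp5 lay between -0.48 without pre-heartbeat replicate 1, which left only slide 2 in that group, and -0.025 without pre-heartbeat replicate 2.

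Bmp10, a ligand of the myocardium that is required for the growth of trabeculae, had signals of -5.71, -4.34 and -4.82 before and -5.04, -4.56 and -4.05 after heartbeat initiation. The probe was dim, at 32.1 to 102 intensity units before scaling, although every array showed it well above background. The groups overlapped over all arrays, but within each slide the post-heartbeat signals were higher, by 0.91 on slide 1 and by 0.53 on slide 2. Accordingly, the log2 fold change rose from 0.41 (SE 0.39, limma adjusted p = 0.864) without the block to 0.72 (SE 0.21) with it, at an unadjusted limma p of 0.00833 that did not pass the adjustment over all tested probes (adjusted p = 0.198). The 95% interval in the blocked fit, from 1.18 to 2.29 fold, is not adjusted for the number of probes tested. With normexp background correction, which compresses dim signals, the log2 fold change of Bmp10 was 0.12. With an array left out and no block, it ranged from 0.029 without pre-heartbeat replicate 1 to 0.71 without pre-heartbeat replicate 2, and it was 0.16 without post-heartbeat replicate 3.

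**Figure D2:**
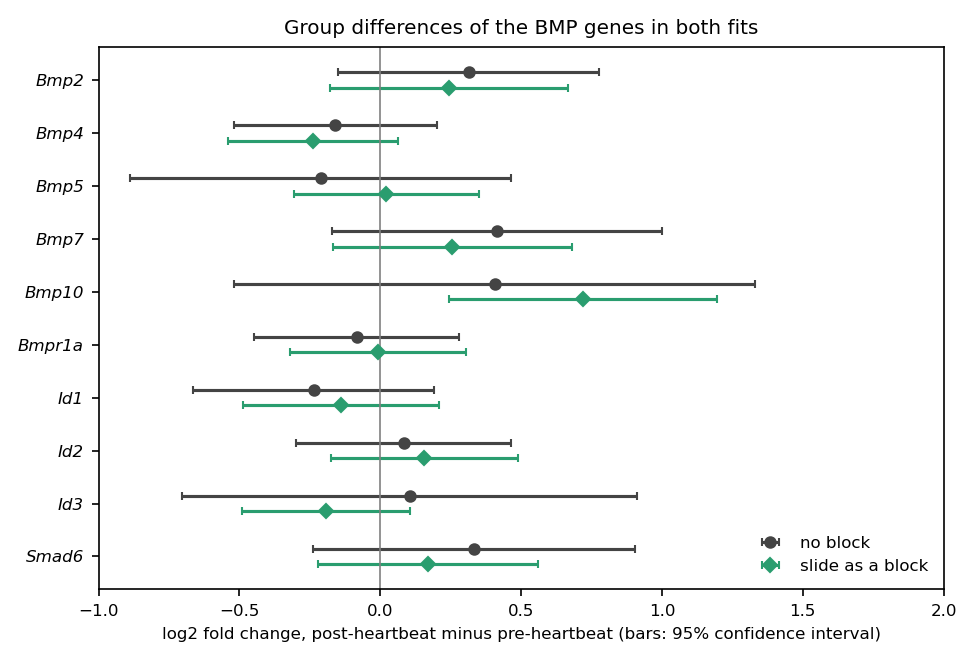
Log2 fold change between post-heartbeat and pre-heartbeat arrays for each of the 10 genes, with its 95% confidence interval, without a block (circles) and with the slide as a block (diamonds). The interval of Bmp10 in the blocked fit, around 0.72, is the only one that does not include 0, and the adjusted p of that fit was 0.198.

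Bmpr1a, the type I receptor also called ALK3, had the narrowest range of the 10 genes over the 6 arrays. Its signals were 0.97, 1.30 and 1.09 on the pre-heartbeat arrays and 0.92, 1.0 and 1.18 on the post-heartbeat arrays, so the groups overlapped throughout. The probe lies on chromosome 16 from 10062311 to 10062370. Bmpr1a differed by -0.08 (SE 0.15, limma adjusted p = 0.884) without the block and -0.01 (SE 0.14, limma adjusted p = 1.0) with it. The 95% interval of the unblocked fit, from 0.733 to 1.21 fold, still holds changes of that size in either direction.

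The target genes also showed no change that passed a test. Id1, Id2 and Id3 encode helix-loop-helix proteins without a DNA-binding domain, which pair with other helix-loop-helix factors and keep them from DNA, and they are common readouts of BMP signaling. Id1, which 10 spots measured on each array, gave 1.62, 2.19 and 2.06 before and 1.65, 1.73 and 1.77 after heartbeat initiation. The post-heartbeat arrays lay close together (SD 0.06), between pre-heartbeat replicate 1 and the other pre-heartbeat arrays. Its difference was -0.24 (SE 0.18, limma adjusted p = 0.864) and, in the blocked fit, -0.14 (SE 0.15, limma adjusted p = 0.975). Without pre-heartbeat replicate 1, the difference of Id1 was -0.41, and without pre-heartbeat replicate 2 it was -0.12.

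Id2 had 2 probes. The probe of its curated transcript, on chromosome 6 between 42782548 and 42782897, had signals of 2.51, 2.91 and 2.75 before and 2.65, 2.88 and 2.89 after heartbeat initiation. These groups overlapped, and the log2 fold change was 0.08 (SE 0.16, limma adjusted p = 0.891), with a 95% interval from 0.813 to 1.38 fold. The second probe that carries the name Id2 was designed on another transcript model, on chromosome 6 from 42769872 to 42769931, and is printed here because it gave no signal well above background on any array.

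Id2, second probe: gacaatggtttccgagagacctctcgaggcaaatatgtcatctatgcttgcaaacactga

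Its values lay between -8.34 and -7.79, at 4.9 to 5.3 intensity units, and it was not tested. What is said of Id2 therefore rests on the first probe.

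Id3 had the lowest adjusted p between the slides among the 10 genes. Its signals were 0.40, -0.40 and -0.49 on the pre-heartbeat arrays and 0.23, 0.29 and -0.68 on the post-heartbeat arrays, and the 3 positive values were those of slide 1. Slide 2 was lower than slide 1 by a log2 difference of -0.89 (SE 0.13, limma adjusted p = 0.00523). Between the groups, the log2 fold change of Id3 was 0.10 (SE 0.34, limma adjusted p = 0.938) without the block and -0.19 (SE 0.13, limma adjusted p = 0.828) with it. Within slide 1 it was -0.15 and within slide 2 -0.24, opposite in sign to the pooled value.

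Smad6, an inhibitory Smad that damps signaling from BMP receptors and is itself induced by BMP, gave 1.17, 0.57 and 1.05 before and 1.48, 1.46 and 0.85 after heartbeat initiation. The higher post-heartbeat arrays were those of slide 1, and the array of slide 2 lay among the pre-heartbeat values. Smad6 differed by 0.33 (SE 0.24, limma adjusted p = 0.864) without the block and 0.17 (SE 0.17, limma adjusted p = 0.961) with it. The 95% interval of the unblocked fit ran from 0.847 to 1.87 fold, and leaving out an array moved the value of Smad6 between 0.15, without pre-heartbeat replicate 2, and 0.54, without post-heartbeat replicate 3. Among the 4 target genes, Id1 was thus lower and Id2, Id3 and Smad6 were higher in the unblocked fit, none of them past the threshold.

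For most of the 10 genes, as for most tested probes, the slides differed by more than the groups did. In the model with both terms, the slide difference was larger than the group difference for 8 of the 10 genes, beside 13629 of 19299 tested probes, and its median size was 0.38, beside 0.26 over all tested probes. It passed the threshold for Bmp5 and Bmp10, which were higher on slide 2, and for Id3, which was lower there, beside 16.1% of all tested probes. The arrays of the slides did not overlap for 6 of the 10 genes, beside 42.4% of all tested probes; Bmp5, Bmpr1a and Id1 were higher on slide 2 and Bmp7, Id3 and Smad6 were higher on slide 1. Markers of the heart and of neighboring tissue differed between the slides as well. Of the 12 heart muscle genes, 2 were higher on slide 2 at a limma adjusted p under 0.05. Of the 8 tested endothelial and endocardial genes, 3 were higher and 1 was lower there at that threshold, and 0 of 4 tested definitive endoderm genes passed it. The mean of 6 second heart field genes was between -2.72 and -2.15 on slide 1 and between -3.26 and -2.91 on slide 2. These genes did not all move the same way, as 3 were lower and 1 was higher on slide 2 at a limma adjusted p under 0.05. For 3 of 5 genes of the proepicardium and septum transversum it was between -3.83 and -3.61 on slide 1 and between -5.10 and -4.69 on slide 2, while Wt1 and Upk3b of that list were not tested, as they were not well above background throughout a group. Of 6 genes of yolk sac endoderm, 4 were lower on slide 2 at a limma adjusted p under 0.05. Between the groups, 2 of the 3 tested genes of the proepicardial list were higher and 1 was lower without the block. Of these, Tbx18 was taken by the methods' selection, with a log2 difference of 1.61 (SE 0.43, limma adjusted p = 0.318). In the blocked fit the adjusted p of Tbx18 was 0.175, and 1 of the 3 genes was higher. The methods' selection in that fit took 0 of them as higher and 1 as lower. Neural and surface ectoderm (2 of 6 genes tested), paraxial mesoderm (3 of 6) and erythroid cells (3 of 6) had no marker past a test between the groups or the slides. The part of tissue content in the slide differences of Bmp5, Bmp10 and Id3 was not tested.

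**Figure D3:**
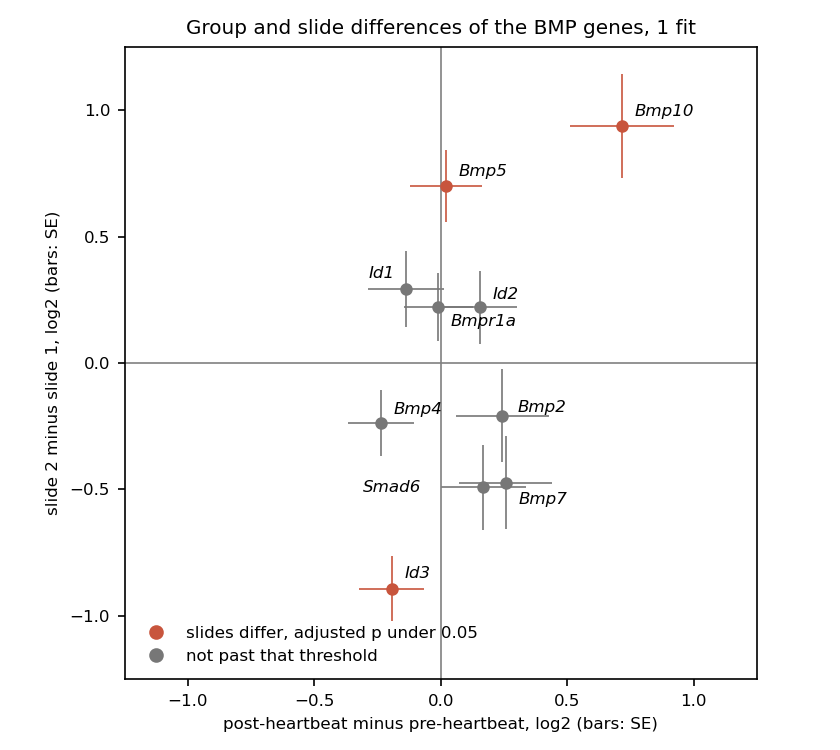
Group difference (post-heartbeat minus pre-heartbeat, horizontal) and slide difference (slide 2 minus slide 1, vertical) of the 10 genes from the same fit, both in log2 units, with bars for the SE. Bmp5, Bmp10 and Id3, in red, passed the threshold between slides, and their points lie farther from 0 on the vertical than on the horizontal axis.

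The rest of the pathway was examined through 54 other genes in 5 lists, of which 52 were on the array by name and 43 were tested. At a limma adjusted p under 0.05, 0 of the 43 changed, beside 0.197% of all 12685 tested genes, and 7 of the 43 had an unadjusted p under 0.05, beside 1019 of the 12685. In the blocked fit, 1 gene was called higher and 2 were called lower, beside 1.92% of all tested genes. These were Hfe2, Cer1 and Grem1, and the selection of the methods took the same genes, 1 of 43 as higher, beside 2.34%, and 2 of 43 as lower, beside 1.22% of all tested genes. The gene counted as higher, Hfe2, entered the test only through the post-heartbeat group, as described below. The median log2 fold change over the 43 genes was 0.02, beside -0.02 over all tested genes. By role, 4 of 7 other ligands were tested (2 higher and 2 lower, none past a test), 9 of 10 other receptors (6 higher and 3 lower), 9 of 10 Smads and their regulators (4 higher and 5 lower, none past a test) and 11 of 17 secreted and membrane antagonists (5 higher and 6 lower). Noggin (Nog) and chordin (Chrd), the classical BMP antagonists, were not well above background throughout either group.

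**Figure D4:**
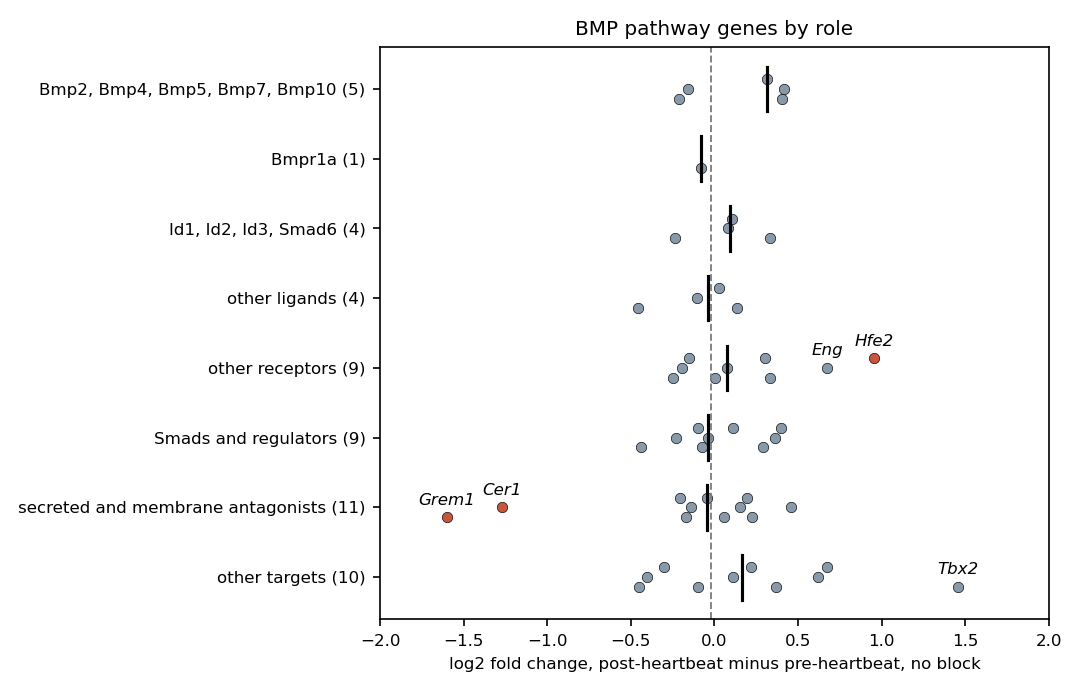
Log2 fold change of each tested gene, without a block, by role, with the number of tested genes in parentheses, black lines for the median of each list and a dashed line for the median of all tested genes. Hfe2, Cer1 and Grem1, in red, passed the selection of the methods and the blocked fit, and 2 of them are antagonists that were lower after heartbeat initiation. Hfe2 entered the test only through the post-heartbeat group.

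Grem1, a secreted antagonist that binds Bmp2 and Bmp4, was the most changed antagonist. Its representative probe, on chromosome 3 from 99597201 to 99597242, gave -2.06, -3.46 and -3.06 on the pre-heartbeat arrays and -3.73, -4.84 and -4.80 on the post-heartbeat arrays. The groups did not overlap over all arrays, and they differed by -2.23 within slide 1 and by -1.54 within slide 2. Grem1 differed by -1.60 (SE 0.43, limma adjusted p = 0.326) without the block and -1.89 (SE 0.31, limma adjusted p = 0.0325) with it. A second Grem1 probe stood well above background on 3 of 3 arrays before but on 1 of 3 arrays after heartbeat initiation. It thus entered the test only through the pre-heartbeat group. Without the block the methods' selection took this probe as lower, but in the blocked fit it did not pass the limma threshold (adjusted p = 0.149). The blocked call of Grem1 therefore rests on the representative probe. Grem1 left the selection of the methods without any 1 of pre-heartbeat replicates 1, 2 and 3 and post-heartbeat replicates 2 and 3, with log2 fold changes from -1.90 to -1.20. With quantile normalization, the blocked fit gave Grem1 an adjusted p of 0.0573.

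Cer1, listed on the array as RGD1563046 and matched through its transcript, encodes a secreted antagonist of BMP, Nodal and Wnt ligands that is known from anterior endoderm. Its representative probe, on chromosome 5 from 101756138 to 101756197, gave -0.13, -0.25 and -0.96 before and -1.53, -1.64 and -1.98 after heartbeat initiation. All post-heartbeat arrays were lower than all pre-heartbeat arrays, and the log2 difference was -1.27 (SE 0.25, limma adjusted p = 0.158) without the block and -1.41 (SE 0.20, limma adjusted p = 0.0212) with it. The second Cer1 probe fell by 1.45 with the block (SE 0.20, limma adjusted p = 0.0201). Over the definitive endoderm markers, 4 of 6 genes were tested, with Sox17 and Shh not well above background throughout either group, and their mean signal was -1.64 to -1.35 before and -1.72 to -1.62 after heartbeat initiation. The mean of the 6 yolk sac endoderm genes was between 0.72 and 1.96 before and between 0.46 and 1.38 after heartbeat initiation. In the blocked fit, 0 of these 6 genes were higher, and their median log2 fold change was -0.55. The methods' selection in that fit took 1 of them as lower. Of the 4 definitive endoderm genes, 0 were higher without the block and 1 with it, with a median of -0.14 in the blocked fit. The part of endoderm content in the fall of Cer1 was not tested.

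Hfe2, now named Hjv, encodes hemojuvelin, a membrane co-receptor for BMP ligands known from iron metabolism and skeletal muscle. Its probe, on chromosome 2 from 191332741 to 191332800, was dim, with -6.24, -6.06 and -5.68 before and -4.98, -5.21 and -4.93 after heartbeat initiation. It stood well above background on 1 of 3 arrays before and 3 of 3 arrays after heartbeat initiation. Hfe2 differed by 0.95 (SE 0.19, limma adjusted p = 0.155) without the block and 1.04 (SE 0.16, limma adjusted p = 0.0275) with it. Hfe2 thus entered the test through the post-heartbeat group and was not tested with a filter on all arrays. With normexp background correction its difference was 0.19 (limma adjusted p = 0.946), which ended the call by the methods' selection, so the size of the difference depends on how a signal near background was treated.

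**Figure D5:**
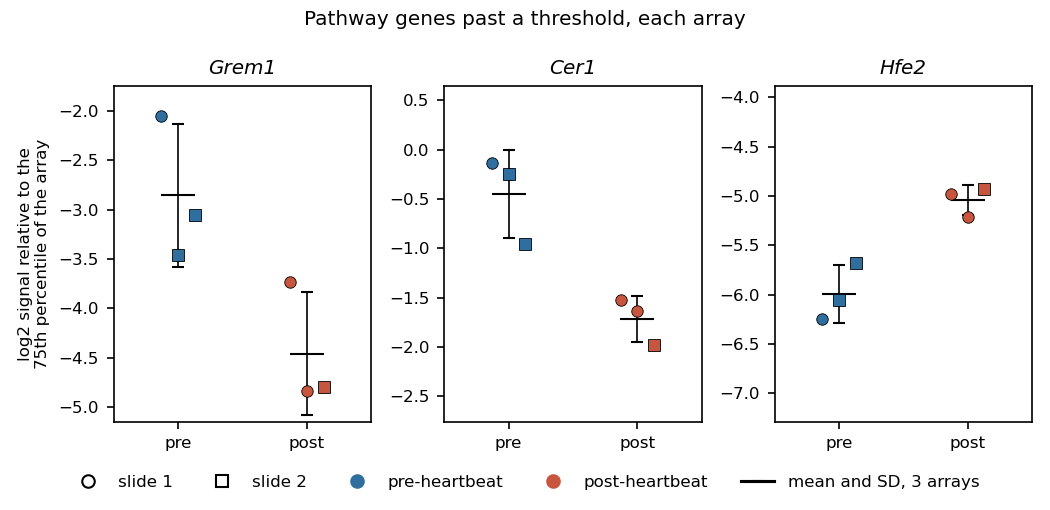
Log2 signal scaled to the 75th percentile of each array for Grem1, Cer1 and Hfe2 on the 6 arrays, with circles for slide 1, squares for slide 2, and black bars for the mean and SD of the 3 arrays of a group. The post-heartbeat arrays lie below all pre-heartbeat arrays for Grem1 and Cer1 and above them for Hfe2, on both slides.

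The core of the pathway between receptor and nucleus did not pass the test. Among the signal transducers, Smad1 had a log2 fold change of -0.44 (SE 0.26), Smad5 of -0.07 (SE 0.16) and Smad9 of -0.23 (SE 0.34), and their common partner Smad4 had -0.04 (SE 0.21). With the slide as a block, Smad1 had -0.27 (SE 0.18), and the values of Smad5, Smad9 and Smad4 turned to 0.014, 0.0016 and 0.035. Their limma adjusted p lay between 0.864 and 0.964 without the block. The Smad9 probe was dim and stood well above background on 3 of 3 arrays before and 2 of 3 arrays after heartbeat initiation. Smad9 thus entered the test only through the pre-heartbeat group. The type II receptor Bmpr2 had -0.19 (SE 0.26) and the type I receptor Acvr1 had 0.30 (SE 0.26), each at a limma adjusted p of 0.864. With the slide as a block, Bmpr2 had -0.03 (SE 0.19) and Acvr1 had 0.46 (SE 0.20). The blocked value of Acvr1 had an unadjusted limma p of 0.0477 that did not pass the adjustment over all tested probes (adjusted p = 0.507).

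Groups did not overlap for 7 of the 43 genes, beside 13.3% of all tested genes, and 4 of these passed no test. The ligand gene Gdf2, also called BMP9, had a log2 difference of -0.45 (SE 0.22, limma adjusted p = 0.812). Eng, the co-receptor endoglin of endothelial cells, had 0.68 (SE 0.24, limma adjusted p = 0.545), and the mean of the 8 tested of 9 endothelial and endocardial markers was between -1.15 and -0.84 before and between -1.32 and -1.16 after heartbeat initiation. Of these markers, 1 passed in the blocked fit, Cldn5, which fell by 0.93 (SE 0.17, limma adjusted p = 0.0448). Without the block, 1 of the 8 was higher and 7 were lower. With it, 4 of the 8 were higher, and their median log2 fold change was -0.06. Fstl3, an inhibitor of activins, had 0.46 (SE 0.17, limma adjusted p = 0.626). Msx2, a homeobox target of BMP signaling, had -0.40 (SE 0.15, limma adjusted p = 0.610).

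Of the other target genes, 10 of 10 were tested and 0 passed either test, with 6 higher and 4 lower. Tbx2, a T-box repressor of the atrioventricular canal that BMP signals induce, had the largest difference in this list, 1.46 on the log2 scale (SE 0.52, limma adjusted p = 0.572) with overlapping groups, and 1.07 in the blocked fit (SE 0.32, limma adjusted p = 0.226). Its signals were -1.62, -3.64 and -2.33 on the pre-heartbeat arrays and -0.75, -0.76 and -1.71 on the post-heartbeat arrays, and Tbx2 and Eng were named after their values were seen. Without post-heartbeat replicate 3, the methods' selection also took Nkx2-5 and Gata4, cardiac transcription factors that BMP signals help to induce, as higher and Smad1 as lower. That replicate was the only post-heartbeat array on slide 2. Slide 2 minus slide 1 was -0.98 for Nkx2-5 (SE 0.19, limma adjusted p = 0.0150) and -0.59 for Gata4 (SE 0.21, limma adjusted p = 0.0935). In the blocked fit over all arrays, the group difference was 0.35 for Nkx2-5 (limma adjusted p = 0.702) and 0.42 for Gata4 (limma adjusted p = 0.623). For Smad1 it was -0.27 (limma adjusted p = 0.825).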

How the data were processed

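Total RNA of 6 heart primordium samples was labeled with Cy3, and each sample was hybridized to its own 1-color Agilent rat array. The authors deposited, for every spot, the intensity that Agilent Feature Extraction 10.7.3.1 gave after background subtraction, and a table of ratios for which GeneSpring had applied a 75th percentile shift and then divided every probe by its baseline. In these ratios, the median of an array was between 0.935 and 1.10, and 3.81% of probes had a median log2 ratio within 0.01 of 0, so these ratios do not follow from the median over the 6 arrays used here, although the methods name the median across all samples as the baseline. A baseline of 1 value a probe cancels between groups.

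Here, non-control spots without an outlier flag were taken as log2 of the processed signal less the 75th percentile of the array, and spots of the same probe were averaged. A probe was called well above background on an array where its spots were so on average (0.5 or more). Of 30367 probes, 19299 (63.6%) were tested, 2 of them without a value on at least 1 array, and 18006 matched a current RefSeq symbol by transcript, as did 10 of the 10 genes. A gene was represented by its brightest tested probe. Groups were compared with limma 3.58.1 under R 4.3.3 with Benjamini-Hochberg adjustment over all tested probes at 0.05, and single probes by a two-sided exact permutation test over 20 assignments. The fit was tested on simulated data. Alternatives were the replicate number or slide as a block, normexp (offset 50), quantile normalization, another percentile, other filters, the deposited ratios, the methods' test after Benjamini-Hochberg adjustment, the mean over a gene's probes, the limma p or a threshold of 2 fold in the selection, and leaving out each array. Quantile normalization and the ratios with the slide as a block were added after seeing the data. The genes named beside the 10 were those called, the core transducers, and the largest rise and fall of each list among genes with groups that did not overlap, and of each marker list its most changed called gene. The 10 genes and the lists were chosen with earlier results of these data known. Precision is limited by having 3 arrays a group.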

Additional observations from a re-analysis of the deposited data

How the results depend on the processing

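Each of the 10 genes stayed outside the limma threshold in 17 alternatives and outside the methods' selection in 18. The sign turned for Bmp5 with the slide as a block (0.021), also with quantile normalization (0.0098) or the authors' ratios (0.021), and for Id3 (-0.19, -0.20 and -0.19). The same 3 settings turned Smad4 (0.035, 0.0028 and 0.035) and Smad9 (0.0016, 0.058 and 0.0014), and the block alone or with the ratios turned Smad5 (0.014 each). With an array left out, the value for Id3 ranged from -0.067 to 0.42, that for Bmpr1a from -0.16 to 0.0090, for Id2 from -0.023 to 0.18, for Smad4 from -0.15 to 0.18, for Smad5 from -0.19 to 0.0090 and for Smad9 from -0.52 to 0.070. Over all tested probes, limma called 24 higher and 4 lower. Higher calls were 211 with the slide as a block, 116 and 233 with that block and quantile normalization or ratios, 110 with the replicate block, 43 with normexp, 11 with quantile normalization, 10 with the ratios, 1 without a filter, 0 by the methods' test after adjustment and 0 to 1 with an array left out. Lower calls were 81, 44, 105 and 56 with the same blocks, 0 without a filter, 0 by the methods' test and 0 to 1 with an array left out. Of the 43 other pathway genes, of which limma called 0 without a block, it called 1 higher in each fit with the slide as a block and 2, 1 and 2 lower with the slide alone, with quantile normalization and with the ratios, and the replicate block called 2 lower, Grem1 (adjusted p = 0.0135) and Cer1 (adjusted p = 0.0266). The gene called higher was Hfe2, which entered the test only through the post-heartbeat group. The methods' selection took 0 as higher with normexp or a filter on all arrays, 1 to 3 with an array left out, and 1 to 2 as lower. The causes of these changes were not tested. Deviations from the group means correlated at 0.65, -0.28 and 0.49 between arrays of the same number, and arrays of number 2 did not correlate best with each other. Between the groups, arrays of the same slide always correlated positively and arrays of different slides negatively. The arrays of number 2 lay on different slides. These correlations therefore cannot tell whether replicate numbers pair the samples. The number of arrays and, for Bmp10, Smad9 and Hfe2, a signal near background limit these results.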
